A study of Caenorhabditis elegans with 6 samples.

Results

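The oocyte and eggshell genes described here are 10 named genes of Caenorhabditis elegans, oma-1, oma-2, puf-5, puf-11, cpg-1, cpg-2, egg-1, egg-2, cbd-1 and mei-1, out of 45343 features in the deposited table. They were chosen by name for their known roles in the oocyte and the egg, and each symbol matched 1 row of the table. RNA came from whole larvae in the middle of the third stage of larval growth (L3), grown after bleach synchronization. The groups were 3 libraries of the N2 Bristol wild type (WT) and 3 of blmp-1(tm548), a mutant allele of the gene for the zinc-finger transcription factor BLMP-1, and no treatment or other allele is given for either group. Values are FPKM, the fragments mapped to a gene per kilobase of its transcript and per size of the library. In whole animals fewer germ cells and less RNA per germ cell cannot be told apart.

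In the hermaphrodite germ line, cells divide at the distal end of the gonad, enter meiosis as they move away from it, form sperm in the last larval stage and then switch to oocytes in the adult. A growing oocyte loads messenger RNA and protein for the embryo, and RNA-binding proteins hold much of this RNA silent until the egg is activated. The layered eggshell holds a vitelline envelope, chitin and chondroitin proteoglycans, and is finished after fertilization while the meiotic divisions are completed. The 10 genes take part in these steps, as silencers of stored RNA (oma-1, oma-2, puf-5, puf-11), eggshell proteins (cpg-1, cpg-2, cbd-1), egg surface proteins needed for fertilization (egg-1, egg-2) and a meiotic spindle protein (mei-1).

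The 6 libraries held an estimated 7370000 to 7940000 reads each, read from the steps between low FPKM values. The transcript of blmp-1 (F25D7.3) was at 64.9, 71.1 and 75.2 FPKM in WT replicates 1, 2 and 3 and at 40.3, 36.9 and 38 FPKM in mutant replicates 1, 2 and 3. The genotype labels are checked only in part by this, since the labels do not say which part of the gene tm548 removes. The labels call the samples biological replicates without saying how cultures were kept apart, so p-values measure the spread between these samples. The WT libraries differed among themselves in the genes described here: WT replicate 2 held the highest level of the 6 libraries for 9 of the 10, and WT replicate 3 the lowest level within WT for 7 of the 10. The difference between the groups is therefore given for each of the 10 genes also without WT replicate 2 and without WT replicate 3.

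Transcripts of the 10 genes were present in every library, at mid L3, at means of 14.5 to 49.7 FPKM over the 6 libraries. Since FPKM is a level per length, the genes can be ranked. The order was mei-1 (49.7 ± 5.49 FPKM, SD over 6 libraries), cpg-2 (49.4 ± 14.3), cpg-1 (42.2 ± 15.7), cbd-1 (41.9 ± 7.43), oma-1 (22.9 ± 2.37), puf-11 (21.1 ± 3.44), oma-2 (20.9 ± 4.15), egg-1 (19.8 ± 8.14), egg-2 (15.1 ± 2.17) and puf-5 (14.5 ± 9.07). Neighbours in this order mostly exchanged places between libraries. The level of mei-1 was above that of cpg-2 in 4 of 6 libraries, that of cpg-1 above cbd-1 in 4, that of oma-1 above puf-11 in 5, that of puf-11 above oma-2 in 3, that of oma-2 above egg-1 in 4, and that of egg-2 above puf-5 in 4. The exceptions were cpg-2 over cpg-1, cbd-1 over oma-1 and egg-1 over egg-2, each in 6 of 6 libraries. The largest step between neighbours lay between cbd-1 and oma-1: the lowest value of cbd-1 was 36.2 FPKM and the highest of oma-1 was 25.8 FPKM. Within every library the 4 highest genes stood above all the others. Across libraries they overlapped, since cpg-1 was at 27.1 FPKM in WT replicate 3 and egg-1 at 34.8 FPKM in WT replicate 2. With exon lengths of 1546 to 4221 nt in the WBcel235 annotation, the values correspond to an estimated 128 reads at the least (puf-5) and 1770 at the most (cbd-1).

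**Figure D1:**
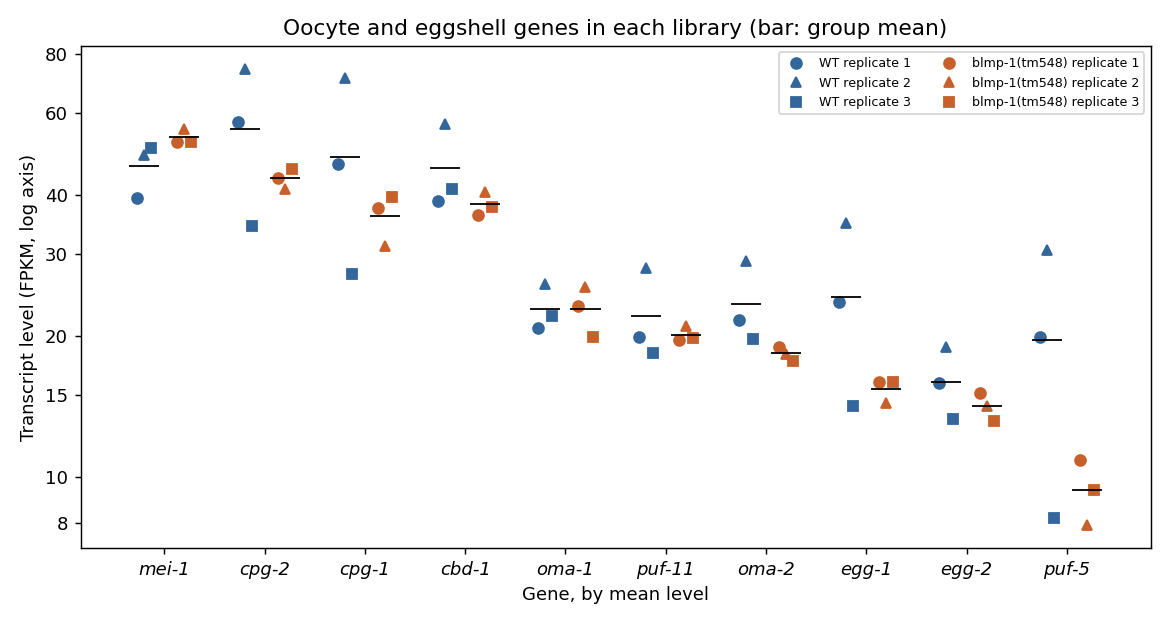
FPKM of each of the 10 genes (log axis) in the 3 WT and 3 blmp-1(tm548) libraries, 1 point per library with the replicate given by its shape and the group mean as a bar. WT replicate 2 is the highest point for every gene but mei-1, and the mutant points lie close together, for instance at 17.7 to 19 FPKM for oma-2.

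The comparison of mutant with WT asks whether the level of these transcripts at mid L3 depends on blmp-1. By limma on log2(FPKM + 1), 0 of the 10 genes passed a Benjamini-Hochberg adjusted p of 0.05, and 0 had an unadjusted p under 0.05. Over all 17058 features tested, those with a mean of at least 1 FPKM, 6.40% passed the adjusted threshold (3.34% higher and 3.06% lower in the mutant) and 23.0% the unadjusted one. The mutant mean was lower for 9 of the 10 genes and higher for mei-1, with a median log2 difference of -0.25 against 0.00 over all features tested. The groups did not overlap for 2 genes, oma-2 and mei-1, which moved in opposite directions, and did not overlap for 28.7% of all features. Without WT replicate 2 the log2 differences of oma-1, puf-11 and cpg-1 changed sign (0.08, 0.07 and 0.02). Without WT replicate 3, 1 of the 10 genes, puf-5, passed the adjusted threshold as lower, as did 1.86% of all features tested in that setting. An unadjusted p under 0.05 was then reached by 5 genes as lower and by mei-1 as higher, and by 22.7% of all features. WT replicates 2 and 3 were singled out by the values of these same genes, so the direction of most of these shifts was fixed by that choice. The shares over all features carry no such choice. With limma's library weights oma-2, egg-1 and cbd-1 passed as lower (log2 differences -0.51, -0.94 and -0.47, adjusted p = 0.0376, 0.0473 and 0.0487), a setting in which 24.1% of all features passed and 12.4% passed as lower. These weights were 4.07 for WT replicate 2 and 0.449 and 0.577 for WT replicates 1 and 3.

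The genes oma-1 (C09G9.6, chromosome IV) and oma-2 (ZC513.6, chromosome V) encode closely related CCCH zinc-finger proteins that act redundantly in oocyte maturation and repress translation of stored RNA. The values of oma-1 were 20.8, 25.8 and 22.1 FPKM in WT replicates 1, 2 and 3 and 23.2, 25.4 and 19.9 FPKM in mutant replicates 1, 2 and 3. The groups overlapped throughout, and the means of 22.9 ± 2.57 and 22.8 ± 2.73 FPKM (SD, n = 3) differed by -0.01 on the log2 scale (95% interval -0.31 to 0.29, limma adjusted p = 0.984). Without WT replicate 2 the difference was 0.08, and without WT replicate 3 it was -0.03. On the scale of FPKM + 1, the interval over all libraries runs from 0.808 to 1.23 times the WT level. For oma-2 the values were 21.6, 28.9 and 19.7 FPKM in WT and 19, 18.3 and 17.7 FPKM in the mutant. The mutant values all lay below those of WT, but the difference of -0.32 missed the threshold (95% interval -0.68 to 0.04, limma adjusted p = 0.264), and an exact two-sided permutation test gave p = 0.1, the smallest that 3 against 3 allows. Leaving out WT replicate 2 brought the difference to -0.16, and leaving out WT replicate 3 to -0.43 (limma adjusted p = 0.497 and 0.169). The ratio of oma-1 to oma-2 was 0.964, 0.893 and 1.12 in WT and 1.22, 1.39 and 1.12 in the mutant, so that oma-2 was the higher of the pair in WT replicates 1 and 2 alone. An exact permutation test on the log2 ratio gave p = 0.1, again the smallest possible.

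Proteins of the Pumilio family bind elements in the untranslated ends of messenger RNA, and PUF-5 represses stored RNA in late oogenesis. The transcript of puf-5 (F54C9.8, chromosome II) had the widest range of the 10 genes as a fold, though cpg-1 and cpg-2 ranged over more FPKM. It was at 19.9, 30.6 and 8.19 FPKM in WT replicates 1, 2 and 3 and at 10.9, 7.89 and 9.37 FPKM in mutant replicates 1, 2 and 3. WT replicates 1 and 2 stood above every mutant library, whereas WT replicate 3 fell within the mutant range. Its log2 difference, -0.82, was the largest of the 10 in size and had the widest interval (-1.90 to 0.25, limma adjusted p = 0.327). It was -1.32 without WT replicate 3 (adjusted p = 0.0477). With WT replicate 2 left out instead, it was -0.43 (adjusted p = 0.624). Over all 16 alternatives the adjusted p of puf-5 lay between 0.0477 and 0.624. The related puf-11 (Y73B6BL.38, chromosome IV) was at 19.9, 28.0 and 18.4 FPKM in WT and 19.6, 21.0 and 19.8 FPKM in the mutant. Its groups overlapped, with a log2 difference of -0.11 (95% interval -0.49 to 0.28, adjusted p = 0.741). With WT replicate 2 left out this was 0.07, and with WT replicate 3 left out -0.22. The ratio of puf-5 to puf-11 was 1 and 1.09 in WT replicates 1 and 2, 0.444 in WT replicate 3, and 0.554, 0.377 and 0.472 in the mutant.

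The chondroitin proteoglycans CPG-1 and CPG-2 carry chitin-binding domains and form an inner layer of the eggshell. The gene cpg-1 (C07G2.1, chromosome III) was at 46.5, 71.0 and 27.1 FPKM in WT replicates 1, 2 and 3 and at 37.6, 31.2 and 39.6 FPKM in mutant replicates 1, 2 and 3. The gene cpg-2 (B0280.5, chromosome III) was at 57.2, 74.4 and 34.4 FPKM in WT and 43.6, 41.3 and 45.4 FPKM in the mutant. For both genes WT replicates 1 and 2 were above all mutant libraries and WT replicate 3 below all of them, so that the mutant values lay inside the WT range. The log2 differences were -0.31 for cpg-1 (95% interval -1.11 to 0.49, limma adjusted p = 0.624) and -0.28 for cpg-2 (-0.91 to 0.36, adjusted p = 0.580). Without WT replicate 2 they were 0.02 and -0.03 (adjusted p = 0.980 and 0.952), and without WT replicate 3 they were -0.66 and -0.58 (0.146 and 0.0727). The 2 genes varied together, with cpg-1 at 0.754 to 0.955 times cpg-2 over the 6 libraries.

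CBD-1 is a chitin-binding protein of the vitelline envelope, on which the other eggshell layers depend. The gene cbd-1 (H02I12.1, chromosome IV) was at 38.8, 56.6 and 41.3 FPKM in WT and 36.2, 40.7 and 37.8 FPKM in the mutant. WT replicate 2 alone stood far above the rest, and WT replicate 3 was above the mutant libraries while WT replicate 1 was not. The log2 difference was -0.23 (95% interval -0.58 to 0.13, limma adjusted p = 0.412). It shrank to -0.06 when WT replicate 2 was left out (adjusted p = 0.737), and was -0.29 without WT replicate 3 (adjusted p = 0.360).

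EGG-1 and EGG-2 are similar transmembrane proteins with low-density lipoprotein receptor repeats on the oocyte surface, and eggs that lack both are not fertilized. The values of egg-1 (B0244.8, chromosome III) were 23.6, 34.8 and 14.2 FPKM in WT replicates 1, 2 and 3 and 16, 14.4 and 16 FPKM in mutant replicates 1, 2 and 3. WT replicate 3 was the lowest of the 6 libraries and WT replicates 1 and 2 the highest, and the difference of -0.53 had an interval of -1.26 to 0.20 (limma adjusted p = 0.350). The difference was -0.24 without WT replicate 2 (adjusted p = 0.656) but -0.86 with WT replicate 3 left out (0.0727). The paralog egg-2 (R01H2.3, chromosome III) varied less, at 15.9, 19 and 13.3 FPKM in WT and 15.1, 14.2 and 13.2 FPKM in the mutant. Its groups overlapped, with a log2 difference of -0.15 (95% interval -0.51 to 0.20, adjusted p = 0.585), which became -0.03 without WT replicate 2 and -0.28 without WT replicate 3. The ratio of egg-1 to egg-2 was 1.49 and 1.83 in WT replicates 1 and 2, and 1.07 in WT replicate 3. In the mutant it was 1.05, 1.01 and 1.21. The ratios of the groups overlapped (1.46 ± 0.382 in WT against 1.09 ± 0.103 in the mutant, SD, n = 3). An exact permutation test on the log2 ratio gave p = 0.2, where 3 against 3 allows no less than 0.1, so it cannot settle whether the ratio differs. Reads of similar copies such as oma-1 and oma-2, egg-1 and egg-2, or puf-11 and puf-3 could be split between them by the counting.

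MEI-1 is the catalytic subunit of katanin, an enzyme that severs microtubules in the meiotic spindle of the oocyte. Alone of the 10 genes, mei-1 (T01G9.5, chromosome I) was higher in each mutant library than in each WT library. It was at 39.4, 48.8 and 50.5 FPKM in WT and 52.0, 55.3 and 52.0 FPKM in the mutant. The difference of 0.20 missed the threshold (95% interval -0.04 to 0.45, limma adjusted p = 0.291; exact permutation p = 0.1). WT replicate 1 was the lowest library here, and without it the difference was 0.09 (limma adjusted p = 0.399). Leaving out WT replicate 2 or 3 gave 0.25 or 0.27 (0.386 and 0.210). The partner subunit gene mei-2 (F57B10.12) was at 24.1, 26.3 and 21.9 FPKM in WT and 29.0, 27.2 and 20.9 FPKM in the mutant, with overlapping groups and a log2 difference of 0.08 (adjusted p = 0.781).

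**Figure D2:**
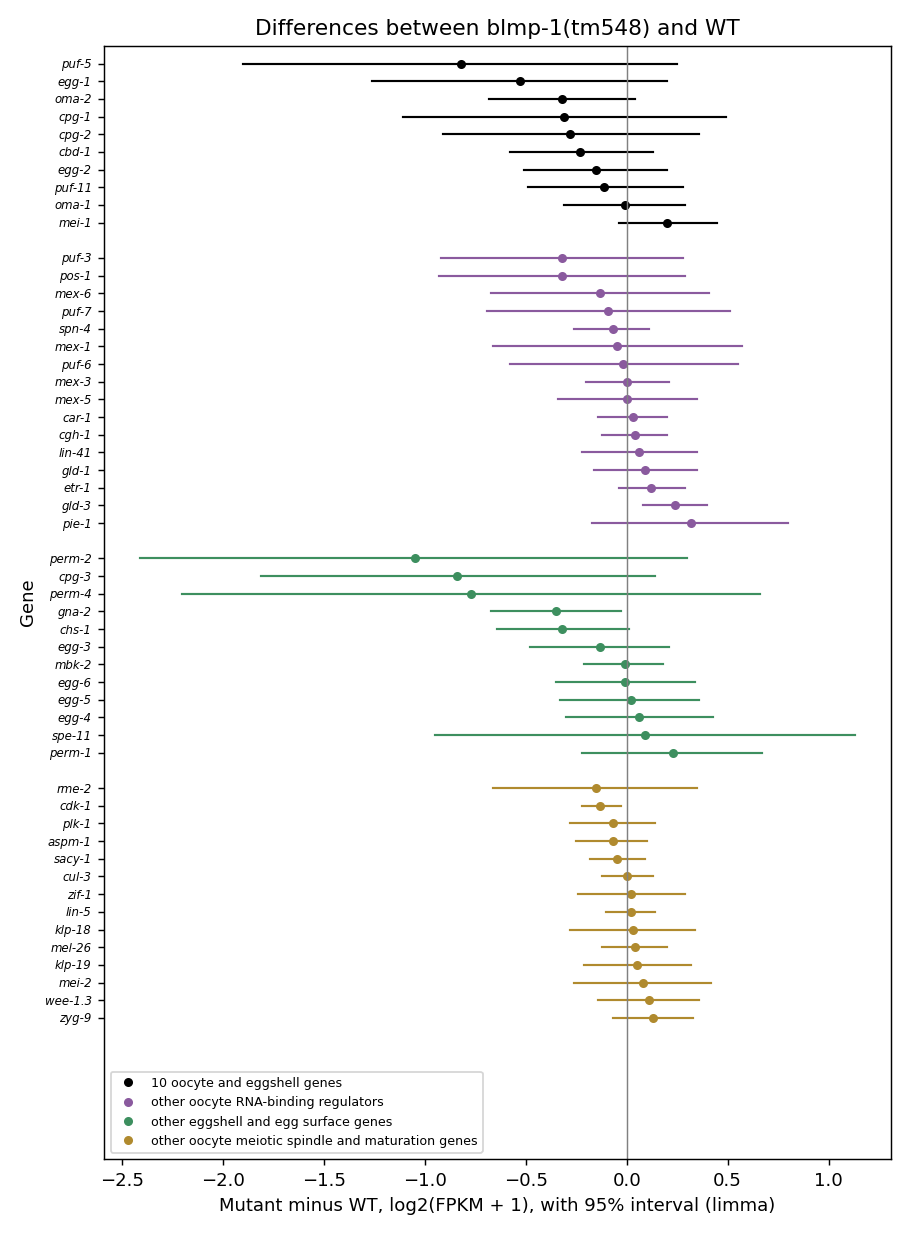
Difference between mutant and WT on the log2(FPKM + 1) scale with its 95% limma interval, for the 10 genes (black) and 42 other genes of oocyte RNA regulation, eggshell and egg surface, and meiotic spindle and maturation. The intervals of the 10 genes all include 0, and puf-5 has the widest of them (-1.90 to 0.25).

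For most of the 10 genes the WT libraries spread more widely than the mutant ones. The SD of log2(FPKM + 1) was larger in WT than in the mutant for 9 of the 10 genes, all but oma-1, and for 54.3% of all features tested. Several related lists showed the same, with 15 of 16 RNA-binding regulators of the oocyte and 10 of 12 eggshell and egg surface genes. It held for 11 of 14 spindle and maturation genes, 18 of 20 germline genes, 30 of 34 sperm genes and 6 of 6 yolk genes. For meiotic prophase the count was 12 of 18. It was only 3 of 10 for the gonadal sheath and spermatheca and 3 of 7 for the adult epidermis and egg laying. The 1 early embryo gene tested did not show it. The median SD over the 10 genes was 0.296 in WT and 0.0831 in the mutant, against 0.128 and 0.119 over all features. The summed level of the 10 genes was 304, 418 and 249 FPKM in WT replicates 1, 2 and 3, but 273, 270 and 271 FPKM in mutant replicates 1, 2 and 3. Within WT the genes fell into a range rather than moving by 1 factor. Replicate 2 exceeded replicate 3 by 3.74-fold for puf-5, 2.62-fold for cpg-1, 2.46-fold for egg-1 and 2.16-fold for cpg-2. The corresponding ratio was 1.52 for puf-11, 1.47 for oma-2, 1.44 for egg-2, 1.37 for cbd-1, 1.17 for oma-1 and 0.967 for mei-1. In the mutant the highest library exceeded the lowest by 1.06-fold (mei-1) to 1.38-fold (puf-5).

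**Figure D3:**
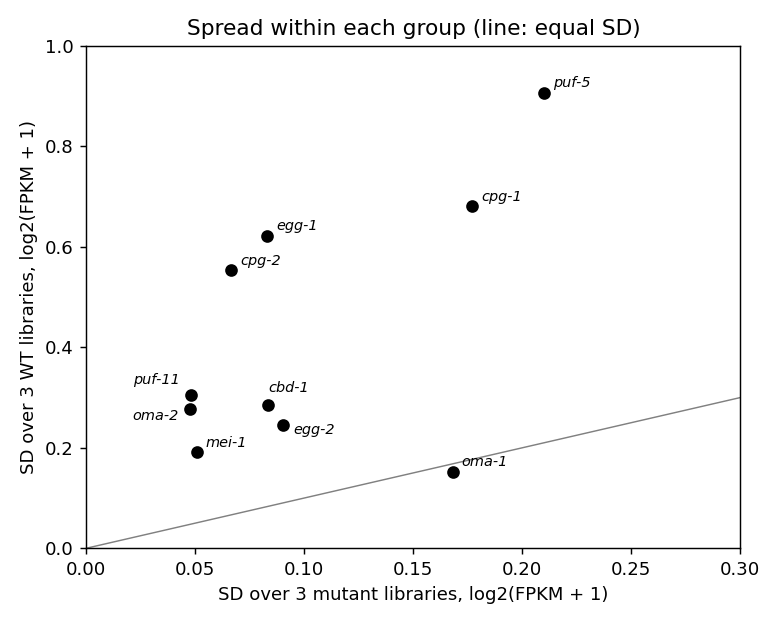
SD over the 3 WT libraries against SD over the 3 mutant libraries, both of log2(FPKM + 1), 1 point per gene, with a line at equal SD. All but oma-1 lie above the line, and puf-5, cpg-1, egg-1 and cpg-2 have the largest WT values (0.907, 0.681, 0.622 and 0.553).

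Other genes of the same processes were taken from 3 lists. Of their 42 genes 0 passed limma's adjusted threshold, against 6.40% of all features tested. At an unadjusted p under 0.05, 1 was higher and 2 were lower, against 23.0% of all features in either direction. Of 16 other RNA-binding regulators of the oocyte and early embryo, 7 had a lower and 9 a higher mutant mean on the log2 scale (median difference 0.00). WT replicate 2 was the highest of the 6 libraries for 11 of the 16, but had the highest and WT replicate 3 the lowest WT value for 3 of the 16. The members given here were picked for their links to the 10 genes, after the values were seen. The gene gld-1 (T23G11.3), for a translational repressor of early oogenesis, was at 64.6, 85.0 and 80.1 FPKM in WT and 78.6, 84.8 and 79.9 FPKM in the mutant. For lin-41 (C12C8.3), a regulator of oocyte growth that acts against early maturation, the values were 41.0, 52.7 and 54.5 FPKM in WT and 48.5, 50.7 and 54.5 FPKM in the mutant. Neither gene showed the high value in WT replicates 1 and 2 that puf-5 had. The gene puf-3 (Y45F10A.2), the closest relative of puf-11, was at 17.6, 23.6 and 11.7 FPKM in WT and 14.1, 11.9 and 14.2 FPKM in the mutant. The similar genes puf-6 (F18A11.1) and puf-7 (B0273.2), which act with puf-5, were at 9.51 and 10.2 FPKM in WT replicate 1, 16.9 and 19.2 FPKM in WT replicate 2, and 10.9 and 11.2 FPKM in WT replicate 3. Unlike puf-5, they were lower in WT replicate 1 than in WT replicate 3.

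Of 12 other eggshell and egg surface genes, 8 had a lower and 4 a higher mutant mean (median log2 difference -0.07). Among them 10 had their highest WT value in replicate 2 and their lowest in replicate 3, as had 7 of the 10 genes above and 13.4% of all features tested. WT replicate 2 was also the highest of the 6 libraries for 10 of the 12. The widest ranges, singled out after the values were seen, were those of perm-2, perm-4 and cpg-3. The gene perm-2 (C44B12.1), for an eggshell protein needed for its permeability barrier, was at 52.1, 62.0 and 13.8 FPKM in WT and 20.7, 12.3 and 18.2 FPKM in the mutant. For perm-4 (C44B12.5) the values were 35.4, 58.3 and 11 FPKM in WT and 22.5, 11.6 and 16.6 FPKM in the mutant, and for cpg-3 (R06C7.4), another chondroitin proteoglycan gene, 31.5, 40.4 and 13.6 FPKM in WT and 15.6, 10.7 and 16.7 FPKM in the mutant. In each of them WT replicate 3 lay among the mutant libraries or below them, and the log2 differences of -1.05, -0.77 and -0.84 missed the threshold (limma adjusted p = 0.321, 0.496 and 0.278). Without WT replicate 3, perm-2 and cpg-3 passed (log2 differences -1.71 and -1.28, adjusted p = 0.0285 and 0.0468) and perm-4 did not (-1.42, 0.0870). They were the only 2 of the 42 related genes that passed in that setting, where 1.86% of all features passed as lower. The 3 genes were picked for wide ranges in which WT replicate 3 was low, and leaving out that library favours such calls. Without WT replicate 2 the differences of perm-2, perm-4 and cpg-3 were -0.67, -0.27 and -0.53 (adjusted p = 0.609, 0.833 and 0.552). The chitin synthase gene chs-1 (T25G3.2) had a narrower range, at 14.8, 18.9 and 14.6 FPKM in WT and 13.0, 13.3 and 11.6 FPKM in the mutant, without overlap (log2 difference -0.32, adjusted p = 0.228). The same held for gna-2 (T23G11.2), which makes a precursor of chitin, at 16.9, 18.2 and 15.5 FPKM in WT and 12.8, 15 and 11.3 FPKM in the mutant (log2 difference -0.35, adjusted p = 0.183). These were the only 2 of the 12 genes whose groups did not overlap, against 28.7% of all features tested.

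Of 14 other genes of the meiotic spindle and of maturation, 5 had a lower and 9 a higher mutant mean (median log2 difference 0.02). WT replicate 2 was the highest of the 6 libraries for 2 of the 14, against 9 of the 10 genes above and 15.7% of all features tested. It was the highest and WT replicate 3 the lowest of WT for 2 of the 14. The yolk receptor gene rme-2 (T11F8.3), through which oocytes take up yolk, was one of the 2, at 22.1, 31.6 and 17.4 FPKM in WT and 21.2, 19.2 and 21.5 FPKM in the mutant.

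**Figure D4:**
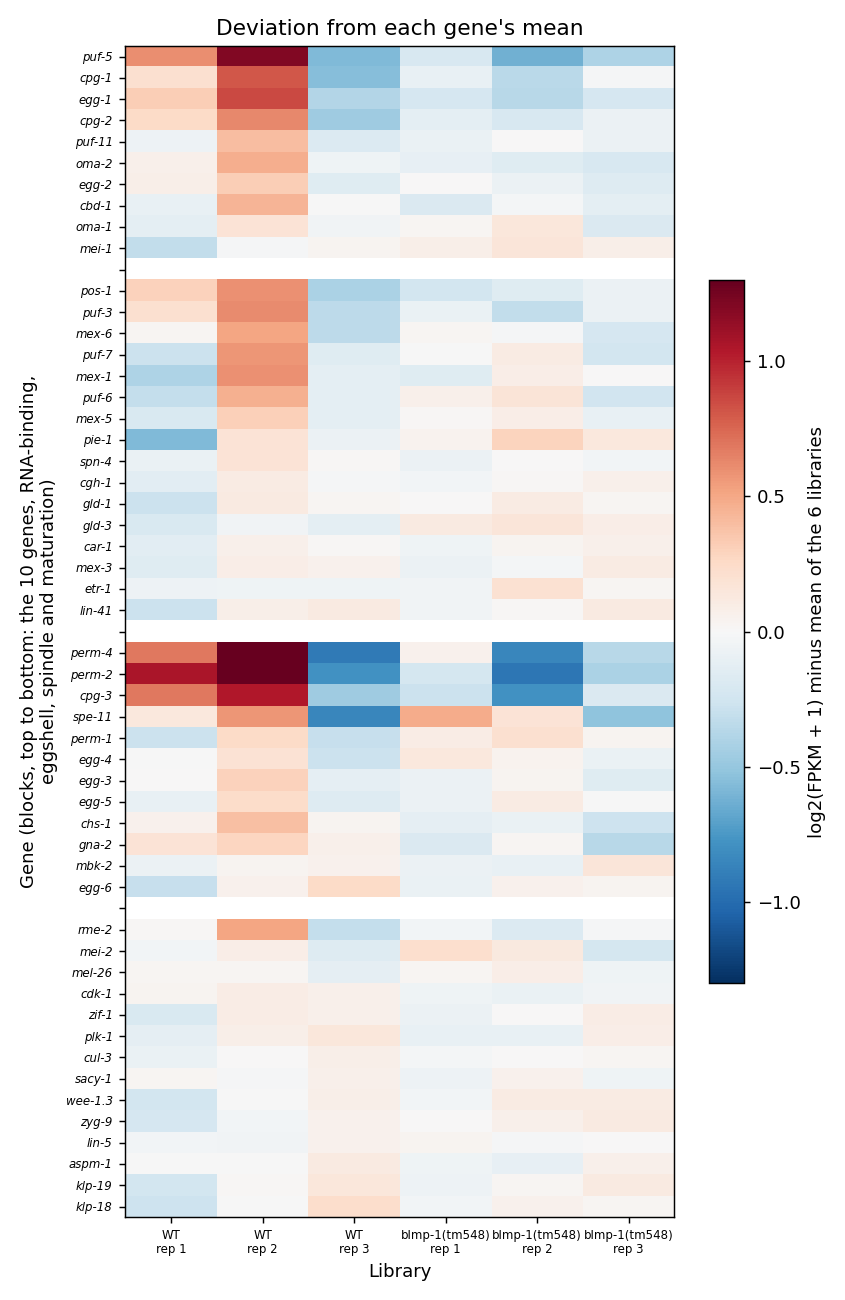
Deviation of log2(FPKM + 1) from each gene's mean over the 6 libraries, for the 10 genes and the 3 lists of related genes, with genes in rows and libraries in columns (deviations beyond 1.3 are drawn at the end of the colour scale). The gene puf-5 deviates by 0.61, 1.2 and -0.58 in WT replicates 1, 2 and 3, while mei-1 deviates by -0.32, -0.02 and 0.03.

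Marker lists of other cells and stages were set beside these values, library by library. Summed over 20 germline genes, the level was 966, 1110 and 1180 FPKM in WT replicates 1, 2 and 3. In mutant replicates 1, 2 and 3 it was 1120, 1200 and 1160 FPKM, so that WT replicate 2 was not the highest. In 2 of the 20, nos-2 and meg-1, WT replicate 2 was highest and replicate 3 lowest of WT (13.4% of all features tested). The sum of the 10 oocyte and eggshell genes amounted to 31.4, 37.8 and 21.1% of this germline sum in WT and to 24.5, 22.5 and 23.3% in the mutant. For 18 genes of meiotic prophase the sum was 658, 663 and 726 FPKM in WT and 760, 780 and 722 FPKM in the mutant, and for 10 genes of the gonadal sheath and spermatheca it was 371, 373 and 365 FPKM in WT and 381, 387 and 376 FPKM in the mutant.

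Genes of later stages followed another pattern. The 6 yolk protein genes, which the adult intestine expresses strongly, summed to 386, 532 and 124 FPKM in WT replicates 1, 2 and 3 and to 156, 72.2 and 122 FPKM in mutant replicates 1, 2 and 3. Of the 6, 4 (vit-1, vit-3, vit-4 and vit-5) were lower at an unadjusted limma p under 0.05, against 23.0% of all features in either direction. The groups did not overlap for the same 4, against 28.7% of all features, and 0 of the 6 passed the adjusted threshold. The sum of 34 sperm genes was 511, 791 and 240 FPKM in WT and 522, 392 and 346 FPKM in the mutant. WT replicate 2 was the highest of the 6 libraries for 28 of the 34. At an unadjusted limma p under 0.05, 3 were higher in the mutant (fer-1, spe-9 and spe-44) and 0 lower, against 23.0% of all features. The sums of the yolk and sperm lists were thus highest in WT replicate 2, with WT replicate 3 the lowest of WT. The same held for 7 of the 10 genes, namely oma-2, puf-5, puf-11, cpg-1, cpg-2, egg-1 and egg-2. In 8 genes of the adult epidermis and of egg laying the sum was 569, 651 and 502 FPKM in WT and 506, 480 and 537 FPKM in the mutant. WT replicate 2 was the highest and WT replicate 3 the lowest of WT for 3 of the 7 genes tested. Most of that sum came from the collagen genes rol-6 and sqt-1, which are not specific to adults and lay at 186 to 213 and 199 to 226 FPKM over the 6 libraries. The receptor gene egl-15 was at 40.4 to 42.5 FPKM in WT and 45.4 to 48.7 FPKM in the mutant. The adult collagen gene col-19 (ZK1193.1) was at 101, 123 and 33.5 FPKM in WT and 51.4, 34.4 and 35.9 FPKM in the mutant. Its counterpart col-7 (C15A11.5) was at 27.1, 46.5 and 2.26 FPKM in WT and 16.8, 8.60 and 8.10 FPKM in the mutant. Transcripts typical of adults were therefore measured in every library of larvae labelled L3, and their part in the values of the 10 genes was not tested. Of 12 genes of the early embryo 3 were listed at 0 throughout (tbx-35, tbx-38 and pes-10), and the others but elt-7 did not exceed 1.17 FPKM. The intestinal factor gene elt-7, which is also active in larvae, was at 39.5 to 47.6 FPKM and makes up nearly all of that list's summed level of 40.8 to 49.8 FPKM.

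**Figure D5:**
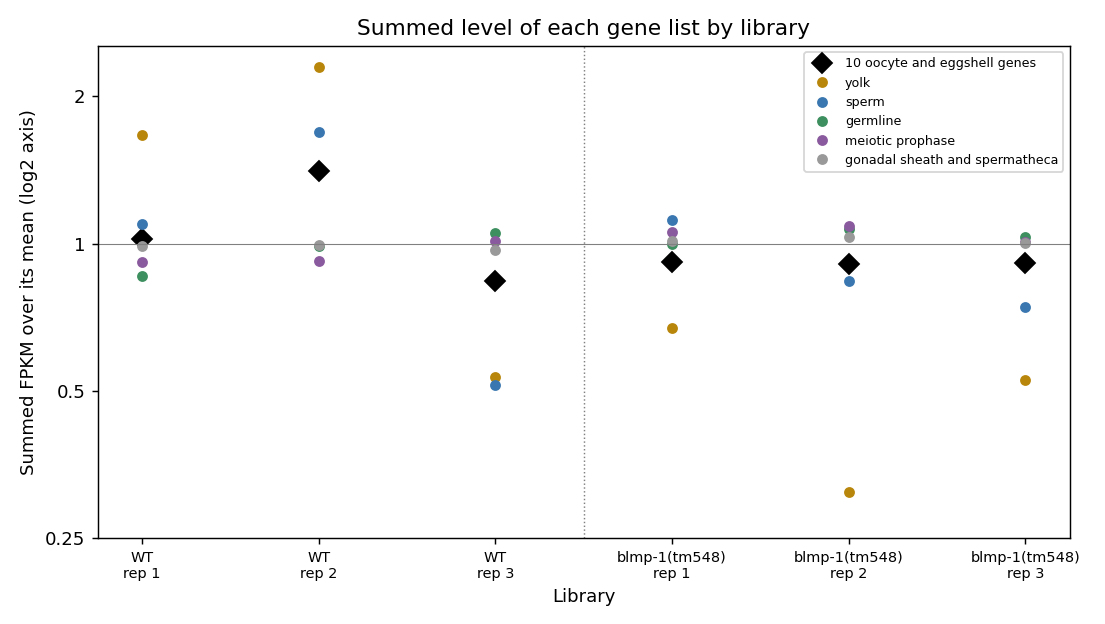
Summed FPKM of the 10 genes and of 5 marker lists in each library, each divided by its mean over the 6 libraries (log2 axis). The 10 genes (diamonds), sperm and yolk lists are highest in WT replicate 2, at 418, 791 and 532 FPKM, while the germline list is higher in WT replicate 3 (1180 FPKM) than in WT replicate 2 (1110 FPKM).

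The median profile of the 10 genes, centred on each gene's mean, was 0.07, 0.45 and -0.17 in WT replicates 1, 2 and 3 and -0.10, -0.12 and -0.15 in mutant replicates 1, 2 and 3 on the log2 scale. The genes nearest to this profile among the 10 were oma-2 (root mean square distance 0.0536), egg-2 (0.0734) and puf-11 (0.0845), and the farthest were puf-5 (0.475) and mei-1 (0.309). Among 14965 other protein-coding genes of at least 300 nt, the 5 nearest over the 6 libraries were era-1 (W02F12.3), T05F1.2, gln-5 (F26D10.10), rab-28 (Y11D7A.4) and F21D5.9, at distances of 0.0672 to 0.0704. For instance, era-1 was at 15.9, 21.2 and 14.4 FPKM in WT and 13.9, 14.5 and 12.4 FPKM in the mutant. The distance is a description of 6 libraries and carries no test.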

How the data were processed

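Messenger RNA of whole mid-L3 larvae was sequenced in 3 WT and 3 blmp-1(tm548) libraries, as the sample titles give them. FPKM values of all features and libraries were deposited by the authors as 1 table. The submitters' processing notes name Cuffdiff, Cufflinks 2.0.2 and TopHat2 2.0.7. No coordinates are printed, because genome build, annotation and strand setting were not given in the sources used here. Symbols, chromosomes and exon lengths came from WBcel235 tables, to which 44880 of 45343 features matched.

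No count model fits FPKM. Values were transformed to log2(FPKM + 1), which understates changes of low genes. The 17058 features with a mean of at least 1 FPKM entered 1 fit by limma 3.58.1 (R 4.3.3; group as the single term, trended prior variance, Benjamini-Hochberg adjustment over all of them, called at an adjusted p under 0.05). The 10 genes passed this filter. Intervals are limma's 95% intervals. The fit was checked on simulated data. Depth was estimated from 311 low single-isoform genes whose values were whole multiples of 1 step within 0.5%. The middle 50% of these gave 7350000 to 8160000 reads for WT replicate 1, and no count test was built on it.

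The 10 genes, the 3 lists of related genes and the 7 marker lists (germline, meiotic prophase, sperm, yolk, sheath and spermatheca, early embryo, adult epidermis and egg laying) were chosen with earlier results of these data known. Of 12 sheath and spermatheca symbols 10 matched, and the other lists matched in full. Named genes were the 10, blmp-1, called members of the lists of related genes (there were none) and the 5 genes with the nearest profile. Other named genes were chosen after their values were seen. The 16 alternatives were a pseudocount of 0.1 or 0.5, a minimum mean of 5 FPKM or none, protein-coding genes of at least 300 nt alone, median-ratio scaling, quantile normalization, library weights, no trend, the replicate number as a block, and each library left out.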

Additional observations from a re-analysis of the deposited data

How the results depend on the processing

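The counts of calls and the log2 differences of the 10 genes, blmp-1, the 5 genes of nearest profile, perm-2, perm-4, cpg-3 and inx-9 were recomputed under 16 alternatives; levels, ratios, SDs, list sums, profile distances and the differences of other genes were not. Of 160 log2 differences of the 10 genes under them, 152 kept their direction and their side of the threshold, 4 passed it as lower and 4 changed sign. Those that passed were oma-2, egg-1 and cbd-1 with library weights (-0.51, -0.94 and -0.47) and puf-5 without WT replicate 3 (-1.32). The changes of sign, all of them when a library was left out, were in oma-1 (0.08 without WT replicate 2 and 0.08 without mutant replicate 3), puf-11 (0.07) and cpg-1 (0.02), the last 2 without WT replicate 2. Over the libraries left out these genes ranged from -0.08 to 0.08, -0.22 to 0.07 and -0.66 to 0.02. With library weights 2005 features were called higher and 2112 lower, together 24.1% of all tested. Among the calls were 3 of the 10 genes and 5 of the 42 related genes. With a library left out, 192 to 620 features were called higher and 177 to 712 lower, 0 to 1 of the 10 genes, and 0 to 2 of the 42 related genes. The cause was not tested, although leaving out a library also leaves fewer samples. Libraries with the same replicate number had correlations of their deviations of 0.13, -0.04 and 0.07, and not every library correlated best with its own number, so the numbers were not read as pairs. With the replicate block 504 features were called higher and 425 lower, and 0 of the 10 genes (0 at an unadjusted p under 0.05). No scaling moved the median of all features by more than 0.01. Depth allowed an estimated 128 reads or more for each of the 10 genes in each library. With 3 samples per group the exact permutation test cannot go below p = 0.1.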

Other observations

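Among 10 genes of the gonadal sheath and spermatheca, the somatic cells that surround and signal to the oocytes, 1 fell and none rose, against 3.06% of all features that fell and 3.34% that rose. It was inx-9 (ZK792.3), for an innexin of the channels that join sheath and germ cells, singled out after the values were seen. Its values were 23.4, 23.8 and 18.1 FPKM in WT replicates 1, 2 and 3 and 12.7, 12.9 and 9.27 FPKM in mutant replicates 1, 2 and 3, without overlap (log2 difference -0.85, SE 0.170, limma adjusted p = 0.0394). The groups did not overlap for 2 of the 10 genes of this list, against 28.7% of all features tested. The call was lost without any single library other than WT replicate 3 (adjusted p = 0.0552 to 0.159), with no filter on low values (0.0540) and with no trend (0.0559), while the log2 difference stayed between -0.71 and -0.98 with any library left out. The similar gene inx-8 (ZK792.2) was at 20.1, 17.4 and 17.4 FPKM in WT and 23.6, 23.7 and 14.4 FPKM in the mutant (log2 difference 0.13, adjusted p = 0.750). Reads of the 2 genes could be split between them by the counting.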
